A study of Mus musculus with 6 samples.

Results

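The 30 genes described here were listed as genes of pericytes and smooth muscle, the mural cells of blood vessels. They were followed in whole brains of C57BL/6 mouse embryos at E14.5. Not all are confined to mural cells. Pdgfb encodes a ligand made by endothelial cells, and Gja4, Rgs4 and Cspg4 are also expressed in other cell types. They were the rows of the deposited count table whose symbol was Pdgfrb, Pdgfb, Cspg4, Rgs5, Rgs4, Kcnj8, Abcc9, Anpep, Acta2, Tagln, Myh11, Vtn, Higd1b, Notch3, Des, Cd248, Ndufa4l2, Ednra, Gja4, Foxs1, Tbx18, Atp13a5, Art3, Mylk, Cnn1, Myl9, Foxf2, S1pr3, Cald1 or Tpm2. All 30 were found among the 52459 symbols of the table, and all 30 passed the filter on low counts. The study compared 3 brains labelled Mfsd7c-/- knock out (KO) with 3 labelled wild type (WT) by bulk RNA sequencing. Mfsd7c, now called Flvcr2, encodes a membrane transporter. The labels give neither the deleted part of the gene nor whether the deletion was confined to a cell type. No litters are named, so a p-value reflects the spread among the 6 samples and nothing wider. Mfsd7c itself had 119, 129 and 130 counts in KO replicates 1, 2 and 3, against 206, 291 and 259 counts in WT replicates 1, 2 and 3.

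Mural cells wrap the endothelial tube. Pericytes cover capillaries and in the developing brain are drawn along new vessels by PDGF-B, which endothelial cells secrete and which binds the receptor PDGFRB on pericytes. Vascular smooth muscle cells surround larger vessels and hold the actin and myosin that make them contract. In the list, Rgs5, Kcnj8, Abcc9, Pdgfrb, Vtn and Higd1b are called the pericyte genes and Acta2, Tagln, Myh11, Cnn1 and Myl9 the contractile genes. In whole tissue, fewer cells of a type and less RNA per cell cannot be told apart.

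The libraries held 43784619 to 50549673 counts. They differed in epidermal, caudal Hox, fibroblast and skeletal muscle markers. Libraries that stood apart in these also did so for several of the genes below. The 6 epidermal markers summed to 395, 19.7 and 69.1 CPM (counts scaled to library size) in KO replicates 1, 2 and 3, against 336, 22.7 and 14.9 CPM in WT replicates 1, 2 and 3. The 10 caudal Hox markers summed to 0.0789 to 1.95 CPM in KO brains, and to 2.77, 139 and 34.7 CPM in WT replicates 1, 2 and 3. KO replicate 1 and WT replicate 1 therefore stood apart in epidermal RNA, and WT replicates 2 and 3 in Hox RNA. The 10 fibroblast markers summed to 1053 to 1303 CPM in KO brains and 908 to 1767 CPM in WT brains, and the 12 skeletal muscle markers to 29.7 to 35.8 CPM in KO brains and 28.9 to 57.7 CPM in WT brains. WT replicate 1 was the highest of the 6 libraries for both. Pax7 was the largest part of the muscle sum in every library, at 16.7 to 23.7 CPM. Relative to each gene's mean over the libraries, the muscle markers tested averaged 0.55, -0.24 and -1.09 log2 units in KO replicates 1, 2 and 3. They averaged 1.42, -0.17 and -0.48 log2 units in WT replicates 1, 2 and 3. No marker on these 4 lists was at 0 in every library, but 7 of the 10 Hox markers were at 0 in at least 1 library. Of the 8 brain markers, 0 were at 0 in any library.

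Rgs5 fell in the KO brains, and it was the only member past an adjusted p of 0.05 in the edgeR quasi-likelihood test over all genes. It was 2.43-fold lower. Of the 6 pericyte genes, Rgs5, Abcc9 and Higd1b were wholly lower in KO brains, and these 3 also had an unadjusted p under 0.05, while the receptor Pdgfrb, the channel gene Kcnj8 and the matrix gene Vtn overlapped between the groups. Of the 30 members, 0 rose and 1 fell. Over all 19565 genes tested, the share called was 0.659%, with 0.624% higher and 0.0358% lower. At an unadjusted p under 0.05, 2 members were higher and 9 lower, where the shares over all genes tested were 4.63% higher and 3.46% lower. The 3 KO values lay wholly above the 3 WT values for 2 members and wholly below them for 7, together 9 of 30, where the share of all genes with no overlap was 14.4%, of which 7.84% higher and 6.58% lower. The median log2 fold change, KO over WT, was -0.086 for the members and -0.0099 for all genes tested. In the authors' deposited table, 3 members passed an adjusted p of 0.05, namely Rgs5, Gja4 and Pdgfb, where 1.5% of the genes given an adjusted p were called.

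**Figure D1:**
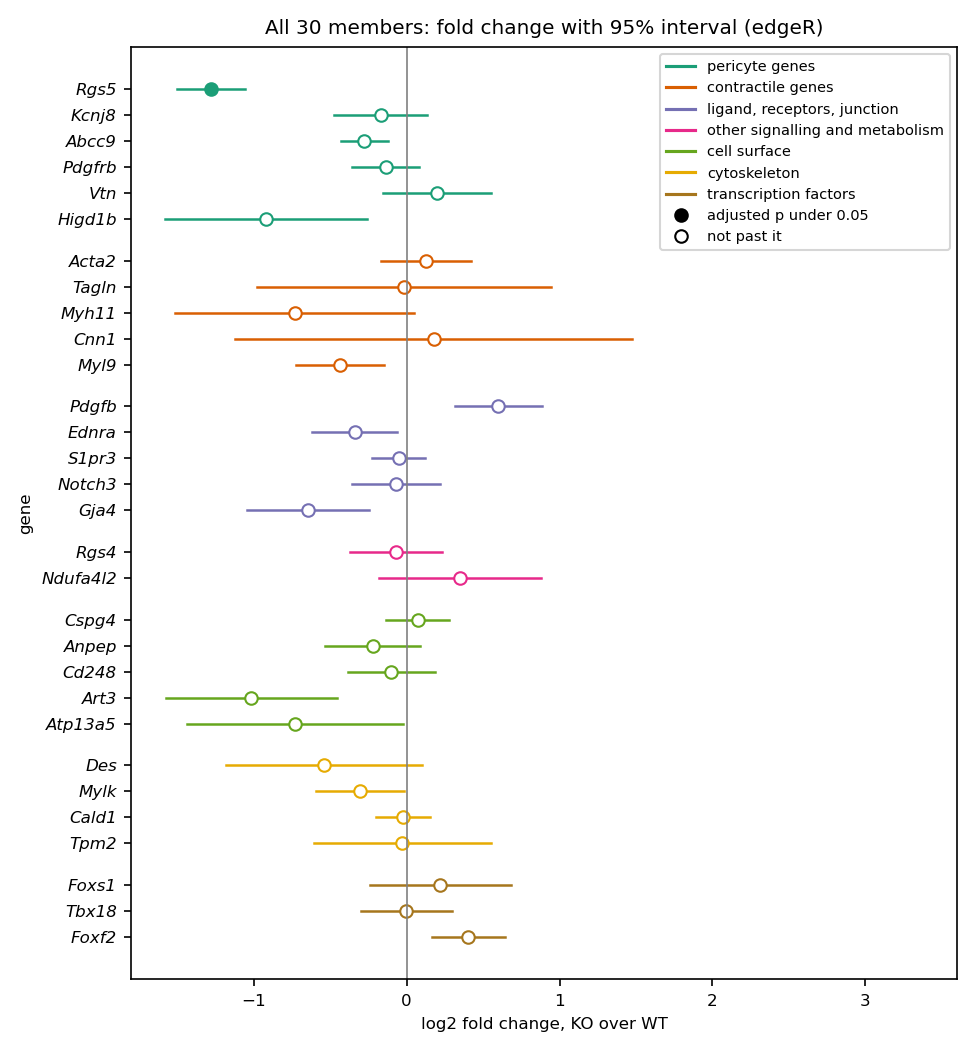
Log2 fold change (x axis, KO over WT) of each of the 30 genes, grouped by role, with the 95% interval from the edgeR fit. Rgs5 is the single filled point, at -1.28, and the intervals of Tagln and Cnn1 are the widest in the contractile group.

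Rgs5 (ENSMUSG00000026678.10, chromosome 1, 169655501 to 169695813, plus strand, GRCm38) encodes a regulator of G protein signalling that speeds the shutdown of heterotrimeric G proteins, and it is widely used as a pericyte marker. It had 36.8, 43.6 and 37.4 CPM in KO replicates 1, 2 and 3, against 105, 96.7 and 84.3 CPM in WT replicates 1, 2 and 3. The highest KO library lay well under the lowest WT library. The means were 39.3 ± 3.80 CPM in KO brains and 95.5 ± 10.6 CPM in WT brains (SD, n = 3 each), and the log2 fold change was -1.28 with an SE of 0.0984 (edgeR adjusted p = 0.00094). Among the 7 genes called lower over the whole table, Rgs5 had the second-lowest fold change. It passed under all 13 alternative settings, with log2 fold changes from -1.42 to -1.16 and adjusted p-values up to 0.0177. Both fits that left out libraries standing apart were among these settings. Without KO replicate 1 and WT replicate 1, which had the most Krt5, the log2 fold change was -1.16. Without WT replicates 2 and 3, which had the most Hoxb3, it was -1.42. That last fit keeps WT replicate 1 as the only WT library, and WT replicate 1 itself stood apart in epidermal, fibroblast and skeletal muscle markers.

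Rgs4 (ENSMUSG00000038530.11), a close relative of Rgs5 in the R4 family, lies 45.7 kb from it on chromosome 1, from 169741477 to 169747642 on the minus strand. Neurons also express Rgs4. It had 45.3, 37.2 and 44.4 CPM in KO replicates 1, 2 and 3, against 51.7, 45.2 and 36.2 CPM in WT replicates 1, 2 and 3. The groups overlapped (log2 fold change -0.068, SE 0.132, 95% interval -0.37 to 0.23, edgeR adjusted p = 0.934). Of the 10 R4 family genes, 8 passed the filter on low counts, and Rgs5 was the 1 that was called. The other R4 genes tested had log2 fold changes from -0.33 (Rgs18) to 0.086 (Rgs8). The median over the family was -0.10, and 7 of the 8 tested lay below 0, where 52.6% of all genes tested did. Rgs2 (-0.11) and Rgs3 (-0.088) were also wholly lower in KO brains, by little, where 6.58% of all genes were.

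The promoter windows of these neighbours are shown because 1 of the pair fell and the other was not called, together with that of Myl9, the contractile gene with the lowest p-value. Each runs from 250 bases before to 50 bases after the RefSeq start on GRCm38.p6, written 5′ to 3′ on the strand of the gene. Capitals mark TAAACA, a forkhead core motif, in Rgs5 (chr1:169655251-169655550, plus strand), TATAAA and GCGTG in Rgs4 (chr1:169747593-169747892, minus strand), and the CArG box, the site bound by serum response factor, in Myl9 (chr2:156775214-156775513, plus strand).
Rgs5: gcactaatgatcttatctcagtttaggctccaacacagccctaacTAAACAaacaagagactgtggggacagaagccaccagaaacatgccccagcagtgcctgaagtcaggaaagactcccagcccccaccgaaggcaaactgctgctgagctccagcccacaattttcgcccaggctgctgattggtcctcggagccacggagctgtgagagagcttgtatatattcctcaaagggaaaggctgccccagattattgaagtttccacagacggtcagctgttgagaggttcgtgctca
Rgs4: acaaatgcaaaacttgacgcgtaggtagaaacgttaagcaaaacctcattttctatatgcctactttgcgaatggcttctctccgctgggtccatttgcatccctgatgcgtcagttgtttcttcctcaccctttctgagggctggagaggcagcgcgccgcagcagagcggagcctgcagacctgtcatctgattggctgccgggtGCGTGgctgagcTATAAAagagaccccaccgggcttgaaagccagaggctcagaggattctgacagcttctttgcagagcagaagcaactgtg
Myl9: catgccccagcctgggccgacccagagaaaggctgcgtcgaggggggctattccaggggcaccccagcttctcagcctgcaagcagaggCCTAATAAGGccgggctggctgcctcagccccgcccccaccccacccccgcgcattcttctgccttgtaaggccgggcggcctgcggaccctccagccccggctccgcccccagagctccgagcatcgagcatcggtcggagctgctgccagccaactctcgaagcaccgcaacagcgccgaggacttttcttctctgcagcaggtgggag

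Counted from the start as 1, the first letter of TAAACA in Rgs5 was at -205, those of GCGTG and TATAAA in Rgs4 at -43 and -31, and that of the CArG box in Myl9 at -161. The table held 25 windows for 22 of the 30 members. Both strands were searched. TAAACA was found in 4 of these 25 and in 13.4% of all 32851 windows of the same length, and TATAAA in 5 and in 13.6%. GCGTG and ACGTG, the core letters of hypoxia response elements, were found in 9 and 5 of the 25, against 32.4% and 19.6% of all windows. TGGGAA, the core of RBPJ sites that mediate Notch signals, was found in 7, against 25.6%. The CArG box was searched only as the exact pattern CCWWWWWWGG, where W is A or T. It was found in 1 of the 25, that of Myl9, and in 1.63% of all windows. Boxes that depart from this pattern or lie outside the windows were not counted. These are matches of letters and not sites shown to be bound.

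Of the 6 pericyte genes, 5 had a log2 fold change below 0 and 1, Vtn, above it. Apart from Rgs5 they ran from -0.92 for Higd1b to 0.20 for Vtn, and none of these passed in edgeR. The median over the 6 was -0.22, against -0.0099 over all genes tested. The 3 of 6 that were wholly lower, and the 3 of 6 lower at an unadjusted p under 0.05, stand beside 6.58% and 3.46% of all genes. Pdgfrb, the receptor through which PDGF-B holds pericytes on the vessel, had 35.1, 39.2 and 42.7 CPM in KO replicates 1, 2 and 3, against 38.6, 46.3 and 43.8 CPM in WT replicates 1, 2 and 3. The groups overlapped, and the log2 fold change was -0.14 (95% interval -0.36 to 0.080, edgeR adjusted p = 0.769). That interval lies wholly above the one for Rgs5, -1.51 to -1.06. Vtn, which encodes the adhesive protein vitronectin, had 57.0, 78.8 and 89.3 CPM in KO replicates 1, 2 and 3, against 59.0, 69.1 and 68.2 CPM in WT replicates 1, 2 and 3. KO replicate 1 was the lowest of the 6 libraries and KO replicate 3 the highest (log2 fold change 0.20, edgeR adjusted p = 0.801). Without the 2 libraries with the most Krt5, Vtn passed at 0.29 (edgeR adjusted p = 0.0480), while the summed choroid plexus markers stood at 667, 1022 and 1401 CPM in KO replicates 1, 2 and 3, against 1011, 1138 and 1009 CPM in WT replicates 1, 2 and 3. KO replicate 1 was lowest and KO replicate 3 highest for these markers too, and neither their part nor that of the epidermal tissue in the Vtn values was tested.

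Kcnj8 and Abcc9 encode the pore Kir6.1 and the regulatory subunit SUR2 of one ATP-sensitive potassium channel and lie 16.2 kb apart on chromosome 6. Kcnj8 had 8.09, 8.18 and 9.70 CPM in KO replicates 1, 2 and 3, against 10.9, 9.91 and 8.42 CPM in WT replicates 1, 2 and 3, and the groups overlapped (log2 fold change -0.17, edgeR adjusted p = 0.801). Abcc9 had 22.7, 21.1 and 21.8 CPM in KO replicates 1, 2 and 3, against 27.3, 26.2 and 26.0 CPM in WT replicates 1, 2 and 3. Each KO library was below each WT library for Abcc9. Its log2 fold change was small, -0.28 (SE 0.0683, 95% interval -0.43 to -0.12), and it did not pass (edgeR adjusted p = 0.219). Higd1b, a gene of the hypoxia-inducible domain family enriched in brain pericytes, was scarce. It had 0.834, 1.16 and 1.00 CPM in KO replicates 1, 2 and 3, against 2.32, 2.17 and 1.197 CPM in WT replicates 1, 2 and 3. The groups parted, but by little between KO replicate 2 and WT replicate 3, and the interval was wide (log2 fold change -0.92, 95% interval -1.58 to -0.26, edgeR adjusted p = 0.403).

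**Figure D2:**
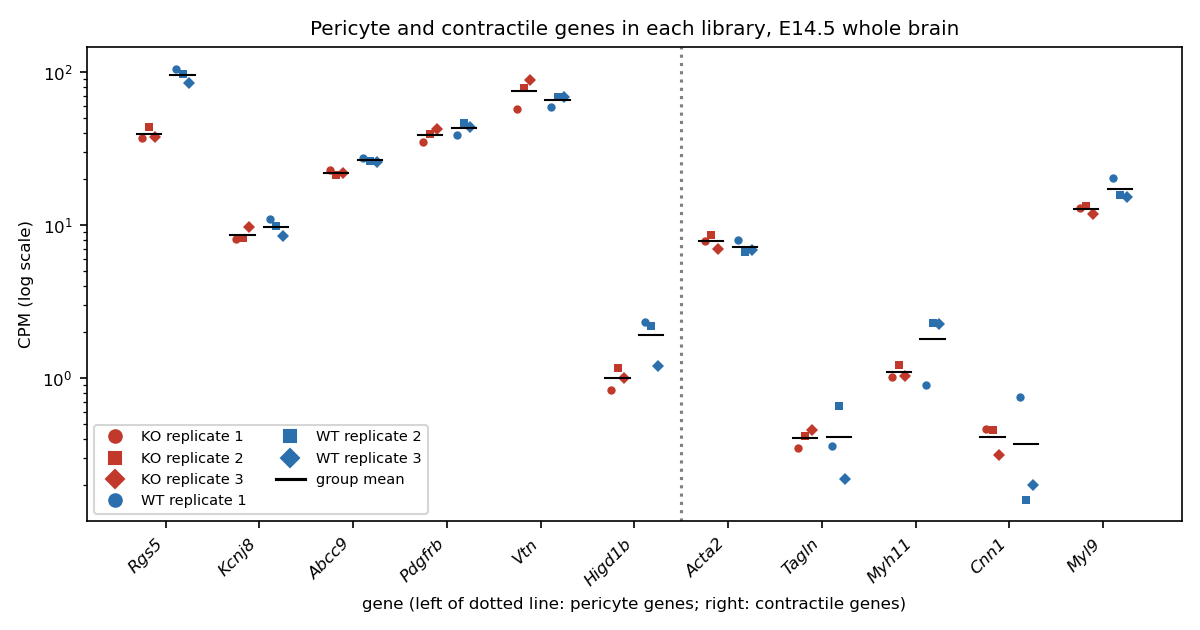
CPM on a log axis for the 6 pericyte genes (left of the dotted line) and the 5 contractile genes (right), with each library as a point and the group mean as a line, KO left of WT for each gene. Rgs5 shows the widest gap between the groups, and Tagln, Myh11 and Cnn1 are the lowest of the contractile genes, with WT points far apart.

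Contractile genes gave no called change. In the edgeR test 0 of the 5 passed, and 0 passed in the DESeq2 Wald test. In edgeR, 1 of them (Myl9, lower) had an unadjusted p under 0.05, where 3.46% of all genes tested were lower at that threshold. The median log2 fold change was -0.019. Acta2, the smooth muscle actin, had 7.90, 8.60 and 6.95 CPM in KO replicates 1, 2 and 3, against 7.98, 6.70 and 6.82 CPM in WT replicates 1, 2 and 3. The groups overlapped (log2 fold change 0.13, 95% interval -0.17 to 0.42, edgeR adjusted p = 0.854). Myl9, a regulatory light chain of myosin, had 12.8, 13.3 and 11.8 CPM in KO replicates 1, 2 and 3, against 20.4, 15.7 and 15.2 CPM in WT replicates 1, 2 and 3. Each KO library was lower than each WT library, with WT replicate 1 the highest (log2 fold change -0.44, SE 0.126, 95% interval -0.72 to -0.15, edgeR adjusted p = 0.338).

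The remaining contractile genes were scarce in whole brain at this stage. Tagln, which encodes the actin-binding protein SM22, had 15, 21 and 22 counts in KO replicates 1, 2 and 3, against 16, 33 and 11 counts in WT replicates 1, 2 and 3. Cnn1, which encodes calponin, had 20, 23 and 15 counts in the KO replicates and 33, 8 and 10 counts in the WT replicates. Neither showed a direction, and changes of 1 log2 unit lie within or near the 95% intervals of both (-0.98 to 0.94 for Tagln and -1.12 to 1.48 for Cnn1). Exons of Tagln also overlap those of Gm48529, an antisense transcript, over 62.4% of their length, and no source used here gives the strand setting of the counting. Myh11, the smooth muscle myosin heavy chain, had 1.02, 1.22 and 1.02 CPM in KO replicates 1, 2 and 3, against 0.902, 2.27 and 2.25 CPM in WT replicates 1, 2 and 3. WT replicate 1 lay under all 3 KO libraries, while WT replicates 2 and 3, which also carried the Hox RNA, lay above them. The log2 fold change of Myh11 was -0.73 (edgeR adjusted p = 0.641). It was -1.05 and passed without WT replicate 1 (edgeR adjusted p = 0.0409). It was -1.01 and passed without the 2 libraries with the most Krt5 (edgeR adjusted p = 0.0449). Without the 2 libraries with the most Hoxb3 it turned to 0.28. That fit keeps WT replicate 1, which lay under all 3 KO libraries, as the only WT library. The part of the Hox-expressing tissue in the Myh11 values was not tested.

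Set against each other, the medians of the pericyte and contractile genes differed by -0.20 on the log2 scale, pericyte minus contractile. The difference was -0.032 without WT replicate 2 and 0.047 without WT replicate 3, since the contractile median then moved to -0.19 and -0.32. The summed CPM of the 6 pericyte genes was 160, 192 and 202 in KO replicates 1, 2 and 3, against 244, 250 and 232 in WT replicates 1, 2 and 3, with Rgs5 the main part of the gap. Relative to each gene's mean over the libraries, the pericyte genes other than Rgs5 averaged -0.28, -0.085 and -0.0077 log2 units in KO replicates 1, 2 and 3, against 0.18, 0.22 and -0.019 in WT replicates 1, 2 and 3. These ranges overlapped. The summed CPM of the contractile genes was 22.6, 24.0 and 20.6 in KO replicates 1, 2 and 3, against 30.4, 25.5 and 24.7 in WT replicates 1, 2 and 3. Without Myl9 the sums ran from 8.74 to 10.7 CPM in KO brains and from 9.50 to 9.99 CPM in WT brains.

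Ratios of counts within a library do not depend on how libraries are scaled. They were compared with a two-sided exact permutation test on log2 ratios, which with 3 against 3 samples cannot give a p below 0.1. Over the 19 ratios computed, a p of 0.1 became 0.112 after Benjamini-Hochberg adjustment. Ratios that hold Rgs5, or the endothelial gene Pecam1, contain a gene called in the edgeR test. Their parting in part restates that call and is not separate support for it. The ratio of Myl9 to Acta2 likewise holds the contractile gene with the lowest p-value. The ratio of Rgs5 to Pdgfrb counts was 1.05, 1.11 and 0.875 in KO replicates 1, 2 and 3, against 2.73, 2.09 and 1.92 in WT replicates 1, 2 and 3 (exact permutation p = 0.1). The ratio of Rgs5 to Kcnj8 counts was 4.55, 5.33 and 3.85 in KO replicates 1, 2 and 3, against 9.66, 9.76 and 10.02 in WT replicates 1, 2 and 3 (exact permutation p = 0.1). Relative to Abcc9 it was 1.80 ± 0.238 in KO brains and 3.602 ± 0.318 in WT brains, and relative to Vtn 0.539 ± 0.114 in KO brains and 1.47 ± 0.283 in WT brains (SD, n = 3 each, exact permutation p = 0.1 for each). Against the scarcer genes Higd1b and Art3 the gap was narrower. The ratio of Rgs5 to Higd1b counts was 44.1, 37.5 and 37.3 in KO replicates 1, 2 and 3, against 45.4, 44.6 and 70.5 in WT replicates 1, 2 and 3, so that KO replicate 1 and WT replicate 2 nearly met (exact permutation p = 0.1). The ratio of Rgs5 to Art3 counts overlapped, at 61.0, 92.3 and 66.3 in KO replicates 1, 2 and 3, against 95.4, 77.1 and 88.1 in WT replicates 1, 2 and 3 (exact permutation p = 0.3). The ratio of Myl9 to Acta2 also parted the groups, at 1.62 ± 0.0796 in KO brains and 2.38 ± 0.167 in WT brains (SD, n = 3 each, exact permutation p = 0.1). The ratio of Kcnj8 to Abcc9 overlapped, at 0.397 ± 0.0456 in KO brains and 0.368 ± 0.0391 in WT brains (SD, n = 3 each, exact permutation p = 0.5).

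**Figure D3:**
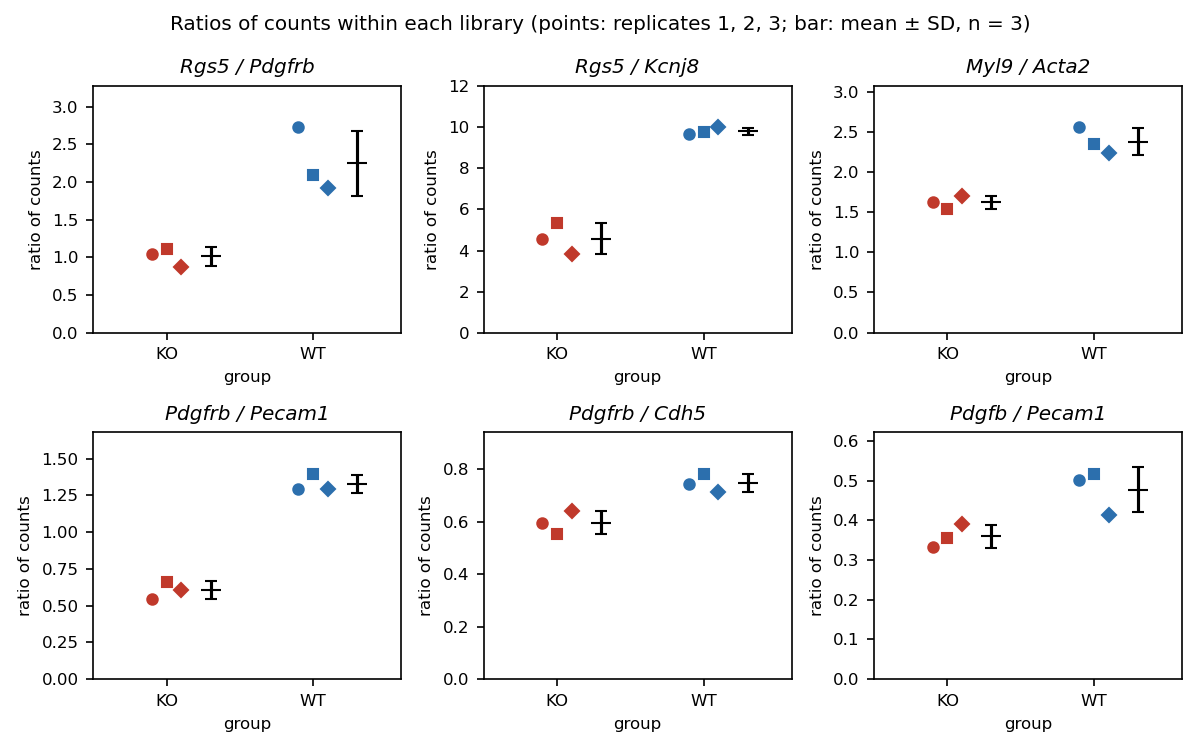
Ratios of raw counts within each library for 6 gene pairs, KO left of WT, with points for replicates 1 (circle), 2 (square) and 3 (diamond) and the mean ± SD beside them. The groups do not overlap in any of the 6 panels, and the gap between them is wider for Pdgfrb over Pecam1 than for Pdgfrb over Cdh5.

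The endothelium was described by 12 markers. Of these 12 endothelial markers, 4 rose in edgeR (Flt1 at 1.22, Pecam1 at 1.00, Eng at 0.80 and Emcn at 0.79 on the log2 scale) and 1 fell, the tight junction gene Cldn5 (-0.50). Over all genes tested, 0.624% were called higher and 0.0358% lower. The summed CPM of the 12 markers was 437 to 483 in KO brains and 328 to 396 in WT brains. The calls depended on the libraries, with 2 higher and 0 lower without KO replicate 1, KO replicate 3 or WT replicate 2, 2 higher and 1 lower without WT replicate 3, and 1 higher and 0 lower without WT replicates 2 and 3 together. The level of Pdgfrb relative to the endothelium depended on the endothelial gene it was set against. Of the 12, Cldn5 (-0.50) and Tek (-0.49, edgeR adjusted p = 0.1755) had log2 fold changes below that of Pdgfrb (-0.14), and the rest lay above it. Relative to Cldn5 or Tek, the fold changes place Pdgfrb higher in KO brains. Ratios were computed only to Pecam1 and Cdh5, where Pdgfrb was lower. Pecam1, an adhesion molecule of endothelial junctions, rose (log2 fold change 1.00, SE 0.0829, edgeR adjusted p = 0.0012), and the ratio of Pdgfrb to Pecam1 counts was 0.605 ± 0.0592 in KO brains and 1.33 ± 0.0613 in WT brains (SD, n = 3 each). Cdh5, the endothelial cadherin, did not pass (log2 fold change 0.19, edgeR adjusted p = 0.645), and the ratio of Pdgfrb to Cdh5 counts was 0.597 ± 0.0440 in KO brains and 0.747 ± 0.0348 in WT brains (SD, n = 3 each). The groups did not overlap for either ratio (exact permutation p = 0.1 for each).

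Among ligands and receptors, none passed in edgeR, and Pdgfb had the lowest p-value. Pdgfb (ENSMUSG00000000489.7, chromosome 15, 79995874 to 80014977, minus strand, GRCm38) had 21.6, 21.1 and 27.5 CPM in KO replicates 1, 2 and 3, against 15.04, 17.17 and 14.005 CPM in WT replicates 1, 2 and 3. Each KO library was above each WT library. The means were 23.4 ± 3.56 CPM in KO brains and 15.4 ± 1.61 CPM in WT brains (SD, n = 3 each), and the log2 fold change was 0.60 (SE 0.125, 95% interval 0.32 to 0.89). It missed the threshold in edgeR (edgeR adjusted p = 0.111). The authors' deposited table called Pdgfb, with a log2 fold change of 0.61 and an adjusted p of 0.00107 from DESeq2. A DESeq2 Wald fit to the same counts gave an adjusted p of 0.00142, and edgeR with no filter on low counts gave an adjusted p of 0.00512. The ratio of Pdgfb to Pdgfrb counts was 0.598 ± 0.0549 in KO brains and 0.360 ± 0.0362 in WT brains (SD, n = 3 each, exact permutation p = 0.1). Relative to Pecam1, Pdgfb was lower in KO brains, at 0.334 to 0.391, against 0.413 to 0.518 in WT brains, and relative to Cdh5 it was higher, at 0.297 to 0.412, against 0.228 to 0.290 in WT brains.

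The other receptors showed smaller differences. Ednra, the endothelin receptor A of smooth muscle and pericytes, had 10.3, 8.14 and 8.08 CPM in KO replicates 1, 2 and 3, against 11.7, 10.7 and 11.1 CPM in WT replicates 1, 2 and 3. The groups parted narrowly, between KO replicate 1 and WT replicate 2 (log2 fold change -0.34, 95% interval -0.62 to -0.061, edgeR adjusted p = 0.492). Notch3, the Notch receptor of mural cells, had 71.5, 89.8 and 80.1 CPM in KO replicates 1, 2 and 3, against 69.3, 88.4 and 95.9 CPM in WT replicates 1, 2 and 3. The spread among WT brains covered all KO values (log2 fold change -0.071, 95% interval -0.36 to 0.22, edgeR adjusted p = 0.924). S1pr3, a receptor for sphingosine 1-phosphate, had 17.8, 18.9 and 18.5 CPM in KO replicates 1, 2 and 3, against 19.6, 17.96 and 19.6 CPM in WT replicates 1, 2 and 3. Its interval, -0.23 to 0.12, was the second narrowest among the ligands, receptors and pericyte genes after that of Abcc9 (edgeR adjusted p = 0.902).

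Gja4 (ENSMUSG00000050234.7, chromosome 4, 127311421 to 127314039, minus strand, GRCm38) encodes connexin 37, a gap junction protein of arterial endothelium and mural cells. It had 4.36, 6.94 and 6.53 CPM in KO replicates 1, 2 and 3, against 8.61, 9.71 and 9.64 CPM in WT replicates 1, 2 and 3. Each KO library was below each WT library, with KO replicate 1 the lowest. The means were 5.94 ± 1.39 CPM in KO brains and 9.32 ± 0.612 CPM in WT brains (SD, n = 3 each), and the log2 fold change was -0.65 (SE 0.175, 95% interval -1.05 to -0.25, edgeR adjusted p = 0.282). The authors' deposited table called Gja4 as well, at -0.64 on the log2 scale with an adjusted p of 0.0272 from DESeq2, and so did a DESeq2 Wald fit to the counts, with an adjusted p of 0.0319. The log2 fold change was -0.47 without KO replicate 1. The ratio of Gja4 to Cdh5 counts was 0.0741 to 0.0980 in KO brains and 0.157 to 0.166 in WT brains (exact permutation p = 0.1). Such a ratio depends on the endothelial gene chosen. The log2 fold changes of Cldn5 (-0.50) and Tek (-0.49) lay nearer to that of Gja4 than that of Cdh5 (0.19) did, and ratios of Gja4 to Cldn5 or Tek were not computed.

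**Figure D4:**
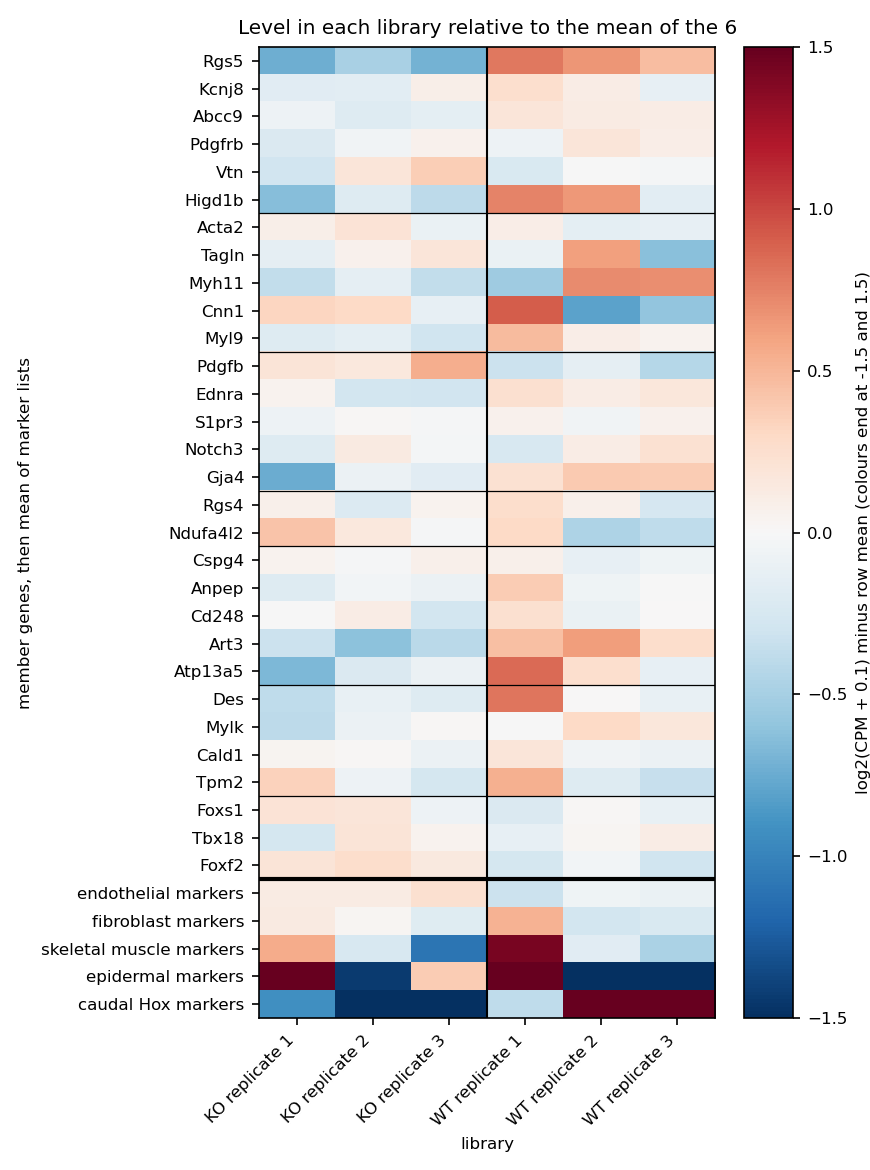
Colours give log2(CPM + 0.1) of each of the 30 genes in each library minus the mean of the 6 libraries, with mean centred log2 CPM of 5 marker lists under the thick line, KO columns left of WT columns. Rgs5 is blue in all 3 KO libraries and red in all 3 WT libraries, while Des, Cnn1, Atp13a5 and Tpm2 are reddest in WT replicate 1, where the skeletal muscle and fibroblast markers are also highest.

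Of the 5 other genes for cell surface proteins, 0 passed in edgeR or in the DESeq2 Wald test. In edgeR, 2 had an unadjusted p under 0.05, both lower, where 3.46% of all genes tested were lower at that threshold. Art3, a mono-ADP-ribosyltransferase family gene enriched in pericytes, had 26, 24 and 27 counts in KO replicates 1, 2 and 3, against 49, 63 and 48 counts in WT replicates 1, 2 and 3. All 3 KO libraries lay near each other and under all WT libraries. The log2 fold change was -1.02 (SE 0.244, 95% interval -1.57 to -0.46), and it did not pass at these counts (edgeR adjusted p = 0.201). Atp13a5, a P5-type ATPase that marks pericytes of the central nervous system, had 0.788, 1.124 and 1.231 CPM in KO replicates 1, 2 and 3, against 2.46, 1.59 and 1.197 CPM in WT replicates 1, 2 and 3. It overlapped between KO replicate 3 and WT replicate 3 (log2 fold change -0.73, edgeR adjusted p = 0.592). Anpep, which encodes CD13, overlapped as well, at 8.58 to 9.56 CPM in KO brains and 9.37 to 12.8 CPM in WT brains. Cspg4, which encodes the NG2 proteoglycan of pericytes and oligodendrocyte precursors, was at 14.45 to 15.38 CPM in KO brains and 13.37 to 15.44 CPM in WT brains (95% interval of the log2 fold change -0.13 to 0.28). Cd248, which encodes endosialin, was at 16.4 to 21.4 CPM in KO brains and 18.5 to 23.4 CPM in WT brains.

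Of the cytoskeletal genes Des, Mylk, Cald1 and Tpm2, 0 passed in edgeR or in the DESeq2 Wald test. In edgeR, Mylk alone had an unadjusted p under 0.05 and was lower, where 3.46% of all genes tested were lower at that threshold. Des, the intermediate filament of muscle and pericytes, was at 1.27 to 1.56 CPM in KO brains, against 3.02, 1.69 and 1.56 CPM in WT replicates 1, 2 and 3. WT replicate 1 was set apart from the other 5 libraries for Des. Tpm2, a tropomyosin, was at 11.4, 8.46 and 7.39 CPM in KO replicates 1, 2 and 3, against 12.99, 7.78 and 7.002 CPM in WT replicates 1, 2 and 3. KO replicate 1 and WT replicate 1 were the highest of their groups for Tpm2, as they were for the epidermal and skeletal muscle markers. The part of that tissue in the Des and Tpm2 values was not tested. Mylk, the kinase that activates smooth muscle myosin, had 11.9, 14.6 and 15.7 CPM in KO replicates 1, 2 and 3, against 15.5, 19.1 and 17.6 CPM in WT replicates 1, 2 and 3 (log2 fold change -0.30, edgeR adjusted p = 0.584). Cald1, which encodes caldesmon, was at 90.8 to 99.0 CPM in KO brains and 90.9 to 109 CPM in WT brains (95% interval of the log2 fold change -0.20 to 0.15).

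The forkhead and T-box factors of mural cells and the metabolic gene Ndufa4l2 did not pass in edgeR. Foxf2, a forkhead factor of brain pericytes, had 12.9, 13.6 and 12.5 CPM in KO replicates 1, 2 and 3, against 9.33, 10.96 and 9.16 CPM in WT replicates 1, 2 and 3. Each KO library was above each WT library (log2 fold change 0.40, SE 0.106, 95% interval 0.16 to 0.65, edgeR adjusted p = 0.258). A DESeq2 Wald fit called Foxf2 with an adjusted p of 0.0480, while the authors' deposited table, also from DESeq2, gave it 0.0543. Tbx18, a T-box factor of mural and other mesenchymal cells, was at 11.4 to 15.7 CPM in KO brains and 12.6 to 14.8 CPM in WT brains. Foxs1, a forkhead factor of perivascular cells, was at 1.27 to 1.58 CPM in KO brains and 1.15 to 1.37 CPM in WT brains. Ndufa4l2, a mitochondrial gene known as a target of hypoxia-inducible factors, was at 4.22 to 5.77 CPM in KO brains, against 5.28, 3.06 and 3.25 CPM in WT replicates 1, 2 and 3. WT replicate 1 lay among the KO values, and the interval, -0.18 to 0.88, covered no change (edgeR adjusted p = 0.758).

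Levels were compared between genes as mean CPM per kb of annotated exon. Rgs5 ranked 5 among the 30 members in KO brains, at 8.64 ± 0.837 CPM per kb, and 2 in WT brains, at 21.0 ± 2.33 CPM per kb (SD, n = 3 each). Vtn ranked 1 in both groups, at 37.0 ± 8.12 CPM per kb in KO brains and 32.2 ± 2.75 CPM per kb in WT brains (SD, n = 3 each). Pdgfrb ranked 8 in both, at 7.12 CPM per kb in KO brains and 7.83 CPM per kb in WT brains. The contractile genes spanned the list, from Myl9 at 10.9 CPM per kb in KO brains and 14.7 CPM per kb in WT brains to Cnn1 at 0.150 CPM per kb in KO brains and 0.134 CPM per kb in WT brains. Tagln, Myh11 and Cnn1 lay at 0.143 to 0.205 CPM per kb in KO brains and 0.134 to 0.238 CPM per kb in WT brains, so most of the contractile genes were measured on few counts.

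A further 3 lists bear on mural cells. Of 24 other mural markers, 1 rose and 0 fell, with a median log2 fold change of -0.0056. The 1 was Mcam, an adhesion molecule of mural and endothelial cells, at 61.8, 53.6 and 62.4 CPM in KO replicates 1, 2 and 3, against 25.7, 36.1 and 37.8 CPM in WT replicates 1, 2 and 3 (log2 fold change 0.83, SE 0.139, edgeR adjusted p = 0.0419). The count became 0 without any of the KO replicates and without WT replicate 2 or 3. Of the 24, 3 were wholly lower in KO brains, among them Mrvi1 (-0.55) and Gper1 (-0.16), and 3 wholly higher, which were Mcam, Cox4i2 (0.81) and Pla1a (0.91). The list for pericyte recruitment held ligands and receptors, and also transcription factors such as Hes1 and Hey1 and the cadherin gene Cdh2. Of its 18 genes, 2 rose and 0 fell, with a median of 0.12. They were Tgfb1, a ligand that drives mural differentiation, at 11.9 ± 0.978 CPM in KO brains and 6.67 ± 0.611 CPM in WT brains (SD, n = 3 each, log2 fold change 0.84, edgeR adjusted p = 0.0183), and Eng, an endothelial co-receptor for that family (log2 fold change 0.80, edgeR adjusted p = 0.0099). The 2 became 0 without KO replicate 1, KO replicate 3, WT replicate 2 or WT replicate 3, and without WT replicates 2 and 3 together. Among these 18 genes, 8 were wholly higher in KO brains, with Cdh2, Hes1 and Hey1 among them, and 1, Tek (-0.49), wholly lower. At an unadjusted p under 0.05, 6 were higher and 1 lower. Over all genes tested, 7.84% were wholly higher and 6.58% wholly lower. The shares at an unadjusted p under 0.05 were 4.63% higher and 3.46% lower. Of 22 genes of the contractile programme driven by serum response factor and myocardin, 21 were tested and 0 passed in edgeR. On that list 2 had an unadjusted p under 0.05, Csrp1 (0.56) and Tpm4 (0.24), both higher, and 2 passed in the DESeq2 Wald test. Its median was -0.0085.

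**Figure D5:**
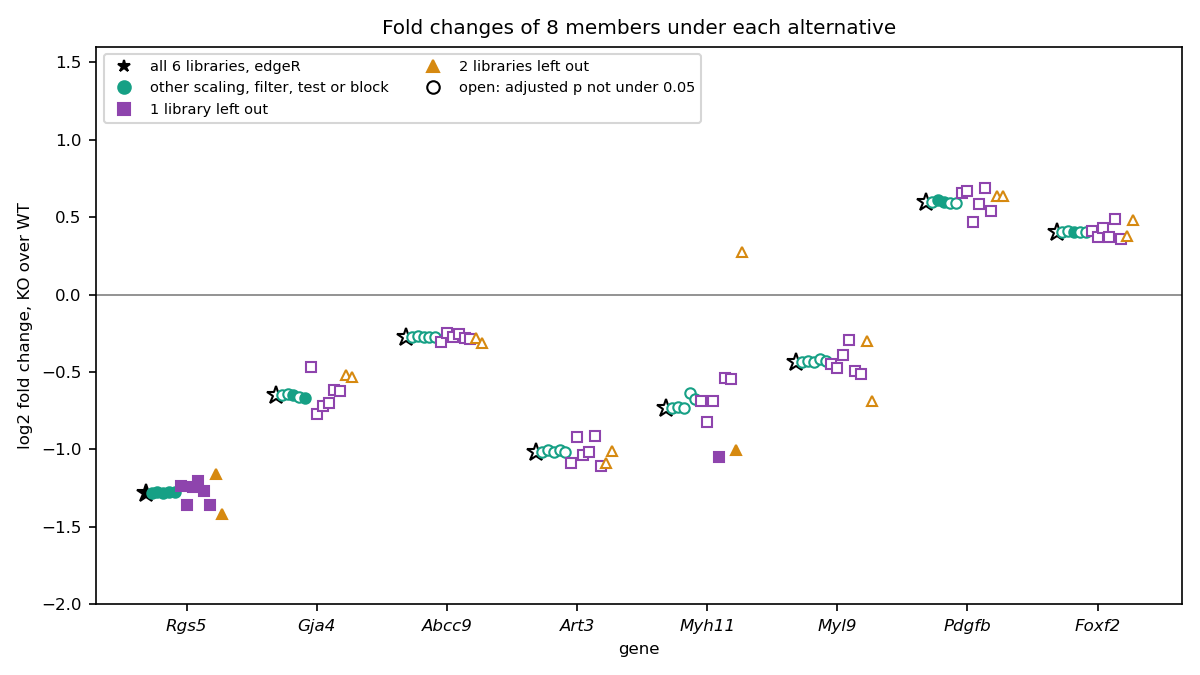
Log2 fold change (y axis, KO over WT) of 8 members in the fit to all 6 libraries (star) and under each alternative, filled where the adjusted p was under 0.05. Rgs5 is filled throughout, between -1.42 and -1.16, Pdgfb, Gja4 and Foxf2 are filled under 1 or 2 alternatives each, and Myh11 changes sign when WT replicates 2 and 3 are left out.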

How the data were processed

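RNA from 6 whole brains was counted per gene symbol. The deposited counts are raw whole numbers. The submitters' processing notes name STAR 2.5.2a, featureCounts, DESeq2 1.12.4, and the builds mm10 and hg19 without saying what each build served. No source used here gives the strand setting, the annotation release or the treatment of shared reads. Per the file headers, the authors' deposited table gives each gene a mean signal (normalized counts), the log2 fold change and SE, the Wald score, the raw p-value and the adjusted p-value. Its sign was checked against the counts, and positive is higher in KO.

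Samples were grouped by title. Counts were filtered with filterByExpr, which kept 19565 genes, scaled by TMM and tested with the robust quasi-likelihood test of edgeR 4.0.16 in R 4.3.3, KO against WT with no covariate, with Benjamini-Hochberg adjustment over all genes at 0.05. The test was checked on simulated counts with the same dispersion for every gene and no libraries standing apart. That check therefore does not cover the differences between libraries seen here. CPM uses TMM-scaled library sizes. The common biological coefficient of variation was 15.3%, so counting error matters for genes under about 1 CPM. Alternatives were DESeq2 size factors, no low-count filter, DESeq2 1.42.0, limma-voom (limma 3.58.1), a replicate block, and libraries left out. Lengths and coordinates come from GENCODE M21 on GRCm38, with all 30 members matched, and promoters from RefSeq, GRCm38.p6. Gucy1a1 and Gucy1b1 were matched as Gucy1a3 and Gucy1b3. No library pair agreed within sampling noise.

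The members and lists were chosen with earlier results of these data known. Values in every sample are given for pericyte and contractile genes, ligands and receptors, Rgs4 and members past the threshold. From other lists, genes that passed are named, up to 4 each. Further genes were named after their values were seen, among them Art3, Atp13a5, Foxf2, Mylk, Tpm2 and the list genes that did not pass.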

Additional observations from a re-analysis of the deposited data

How the results depend on the processing

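Rgs5 passed under each of the 13 alternatives. Counts are all genes called, then higher and lower, against 129, 122 and 7. No low-count filter gave 211, 190 and 21, with 2 members called, 1 of them higher, 0 other mural markers and 1 gene of the contractile programme. The DESeq2 Wald test gave 318, 258 and 60, with 4 members, 2 higher and 2 lower, and 2 of the contractile programme. Leaving out the 2 libraries with the most Krt5 gave 459, 265 and 194, with 3 members, 1 higher and 2 lower, and 2 of the contractile programme. Leaving out the 2 with the most Hoxb3, where the lone WT library is assumed to vary like the others, gave 20, 16 and 4, with 0 recruitment genes. Leaving out single libraries gave 36 to 388, 33 to 233 and 3 to 155, with 1 to 2 members, 1 to 2 of them lower, 0 to 1 other mural markers, 0 to 3 recruitment genes and 0 to 2 of the contractile programme. The contractile median ran from -0.32 to 0.080 and the pericyte minus contractile difference from -0.29 to 0.047. In limma-voom that difference was -0.33. The causes were not tested.

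Replicate numbers were not shown to pair samples, since same-numbered deviations correlated at 0.587, 0.310 and 0.034. With the replicate block, 282 genes were called (212 higher, 70 lower), among them 2 members, both lower, Rgs5 and Gja4 (adjusted p = 0.0417), and the contractile programme had 1. KO replicate 2 correlated best with WT replicate 3 (0.478), so not every sample did so with its own number.

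Members that had not passed turned direction. The log2 values were 0.0038 for Tbx18 with no filter, 0.11 for Tagln and 0.0086 for Tpm2 in limma-voom, and 0.041 for Tagln with the block. Without the 2 libraries with the most Krt5 they were 0.0065 for Rgs4, 0.055 for Tbx18, 0.039 for Cald1 and 0.10 for Tpm2. Without the 2 with the most Hoxb3 they were 0.019 for Pdgfrb, -0.041 for Cspg4, -0.026 for Acta2, 0.18 for Tagln, 0.28 for Myh11, 0.22 for Notch3, -0.098 for Ndufa4l2, 0.13 for Tbx18 and -0.85 for Cnn1. With a single library left out, the range was -0.32 to 0.49 for Tagln, -0.19 to 0.030 for Notch3, -0.11 to 0.12 for Tbx18, -0.19 to 0.057 for Rgs4, -0.22 to 0.30 for Tpm2, -0.19 to 0.0022 for Cd248, -0.074 to 0.063 for Cald1 and -0.19 to 1.18 for Cnn1. At 8 to 33 counts a library, the 95% intervals were -1.12 to 1.48 for Cnn1 and -0.98 to 0.94 for Tagln. Cnn1 did not pass at 1.18 without WT replicate 1 (edgeR adjusted p = 0.194). Differences of 1 log2 unit, and somewhat larger ones, can therefore be missed for these genes.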
